A study of Mus musculus with 16 samples.

Results

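Heat shock chaperones were followed gene by gene in the cortex of THY-Tau22 and wild-type (WT) mice. The 10 genes were chosen by symbol among the 30389 genes of the count tables: Hsp90aa1, Hsp90ab1, Hspa8, Hspa1a, Hspa1b, Hspa5, Dnaja1, Dnajb1, Hsph1 and Cryab. All 10 were present in the tables and were read in cell barcodes with 200 to 7000 detected genes. Their levels are given as CPM, in which the UMIs of a gene (unique molecular identifiers, each of which marks a captured transcript molecule) are scaled to the same total of UMIs in every library, either over all kept cells or over the cells of a single class.

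The mice were heterozygous for a transgene encoding human 4-repeat tau with the G272V and P301S mutations, driven in neurons by the Thy1.2 promoter, or were their WT littermates on a C57Bl6/J background. All animals were 17 months old, both sexes were studied, and the comparisons asked whether the transgene goes with a difference in expression and whether that difference depends on sex. Dissociated cortical cells were profiled by Drop-seq, a droplet method in which each cell meets a bead that carries its barcode. The 16 libraries, labelled as separate samples, comprised 4 males and 3 females that were WT and 4 males and 5 females that were THY-Tau22. Of 3000 barcodes each, 2952 were common to WT male replicate 3 and its counterpart labelled THY-Tau22 male replicate 4, whereas any of the other 119 pairs had 3 to 12 in common. Both were left out, since the same library stood under opposite genotypes, which left 3 males of each genotype, 3 WT females and 5 THY-Tau22 females.

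The 14 libraries held 24578 cells, with 1121 to 2526 cells, 755945 to 2089367 UMIs and a median of 429 to 736.5 UMIs per cell in each library. An animal number is repeated in the titles, on WT male replicate 1 and on replicate 1 of the THY-Tau22 females. Transcripts were counted against the mouse genome, and mouse Mapt, the tau gene, stood at 189 to 364 CPM over the 14 libraries, which does not check the human transgene. Over the whole set of 28530 kept cells, microglia made up 27.7%, astrocytes 19.6%, oligodendrocytes 18.2%, endothelial cells 13.7%, neurons 5.19% and oligodendrocyte precursor cells (OPCs) 4.62%. Classes were called from clusters built without the chaperone genes, and a class needed at least 2 of its fixed markers among a cluster's 10 leading genes. The unnamed cells were 5.67% of the whole set and 31.3% of THY-Tau22 male replicate 3, of which most lay in a single cluster that held 29.4% of this library. Classes are marker-based and may differ from the study's own.

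Chaperones bind proteins that are not fully folded, keep them from aggregating and help them fold. HSP70 proteins bind and release clients in a cycle driven by ATP, J-domain proteins (Dnaja1, Dnajb1) deliver clients and start that cycle, and HSP110 proteins such as Hsph1 reset it by nucleotide exchange. HSP90 proteins act on clients at a later stage, and small heat shock proteins such as Cryab hold unfolded proteins without ATP. Hsp90ab1 and Hspa8 are the constitutive members of their families, Hspa1a and Hspa1b are the classical stress-induced HSP70 genes under heat shock factor 1, and Hspa5 (BiP) is the HSP70 of the endoplasmic reticulum. Chaperone genes are of interest in tauopathy because HSP70 and HSP90 bind tau, and tissue dissociation is itself known to induce stress genes.

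The promoters of 5 of the genes are shown because the stress-induced pair, the endoplasmic reticulum member and 2 cochaperones are set against each other below. They are the 250 bases before a transcription start in the RefSeq windows of the GRCm38.p6 assembly, the build of the mm10 counts, and 6 of the 10 genes had such a window. Capitals mark GAANNTTC or TTCNNGAA, which are inverted GAA units of the kind that heat shock factor 1 binds, or, in Hspa5, the endoplasmic reticulum stress pattern of CCAAT and CCACG with 9 bases between them. The windows lie at chr17:34972157-34972406 (minus strand), chr17:34959239-34959488 (minus), chr2:34771840-34772089 (plus), chr4:40722218-40722467 (plus) and chr5:149636337-149636586 (minus), in the order printed.
Hspa1a: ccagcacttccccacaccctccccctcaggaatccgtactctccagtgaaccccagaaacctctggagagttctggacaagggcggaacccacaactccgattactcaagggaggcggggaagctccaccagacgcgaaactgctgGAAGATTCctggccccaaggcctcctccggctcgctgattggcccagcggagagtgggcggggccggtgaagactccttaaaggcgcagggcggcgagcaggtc
Hspa1b: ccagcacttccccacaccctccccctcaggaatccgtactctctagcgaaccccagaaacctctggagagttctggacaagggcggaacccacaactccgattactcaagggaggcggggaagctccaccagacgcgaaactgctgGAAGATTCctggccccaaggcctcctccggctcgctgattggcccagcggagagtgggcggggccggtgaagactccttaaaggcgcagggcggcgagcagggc
Hspa5: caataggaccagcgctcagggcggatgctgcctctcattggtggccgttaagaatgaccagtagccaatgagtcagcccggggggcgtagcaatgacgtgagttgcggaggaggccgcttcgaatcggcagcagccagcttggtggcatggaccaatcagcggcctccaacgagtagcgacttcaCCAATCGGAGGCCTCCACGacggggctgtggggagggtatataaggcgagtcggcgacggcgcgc
Dnaja1: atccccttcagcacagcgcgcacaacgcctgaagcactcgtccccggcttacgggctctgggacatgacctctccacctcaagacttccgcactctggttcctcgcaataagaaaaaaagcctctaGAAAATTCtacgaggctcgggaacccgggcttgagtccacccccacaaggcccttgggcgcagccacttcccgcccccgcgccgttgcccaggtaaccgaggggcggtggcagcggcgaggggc
Hsph1: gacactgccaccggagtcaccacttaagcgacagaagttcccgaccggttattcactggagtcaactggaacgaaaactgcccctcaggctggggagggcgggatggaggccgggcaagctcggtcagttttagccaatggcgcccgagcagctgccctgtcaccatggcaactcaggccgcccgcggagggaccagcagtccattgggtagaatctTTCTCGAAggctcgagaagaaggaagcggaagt

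The Hspa1a and Hspa1b windows differed at 3 of 250 bases and held the same GAAGATTC from -104 to -97 before the start. The genes lie 9951 bases apart on chromosome 17, Hspa1a at chr17:34969190-34972156 and Hspa1b at chr17:34956436-34959238, both on the minus strand. Over all 32851 promoter windows of this length, 6.69% held GAANNTTC, 7.17% held TTCNNGAA and 12.8% held either; each of these reads the same on both strands. The Hspa5 pattern lay from -65 to -47 and contains a CCAAT that was also counted alone; it was found in 37 windows (0.113%), searched on both strands, where CCAAT alone was found in 33.8%. Dnaja1 held GAAAATTC from -124 to -117 in 1 of its windows, and Hsph1 held TTCTCGAA from -33 to -26. Dnajb1 held neither inverted unit in its windows, and the other members had no window. These are matches of letters and not measured sites.

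Chaperone levels differed between cell classes in most comparisons. Cryab was highest in oligodendrocytes, and among the 6 classes tested Hspa1a and Hspa1b were highest in endothelial cells, Hspa5 in microglia and both cytosolic HSP90 genes in oligodendrocytes. Each class was compared with each other class within the same 14 libraries by a two-sided exact permutation test that flips signs over libraries, on log2(CPM + 1), with Benjamini-Hochberg adjustment over the 174645 tests of all genes. Of the 150 tests of members, 120 (80%) passed an adjusted p of 0.05, and in 78 of the 150 all 14 libraries went the same way. Over all genes 43.0% of the tests passed, a share that includes genes used to form the clusters. The members took no part in the clustering, although genes that vary with them did. The smallest p this test can give is 0.000122, which is 0.000688 after adjustment.

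**Figure D1:**
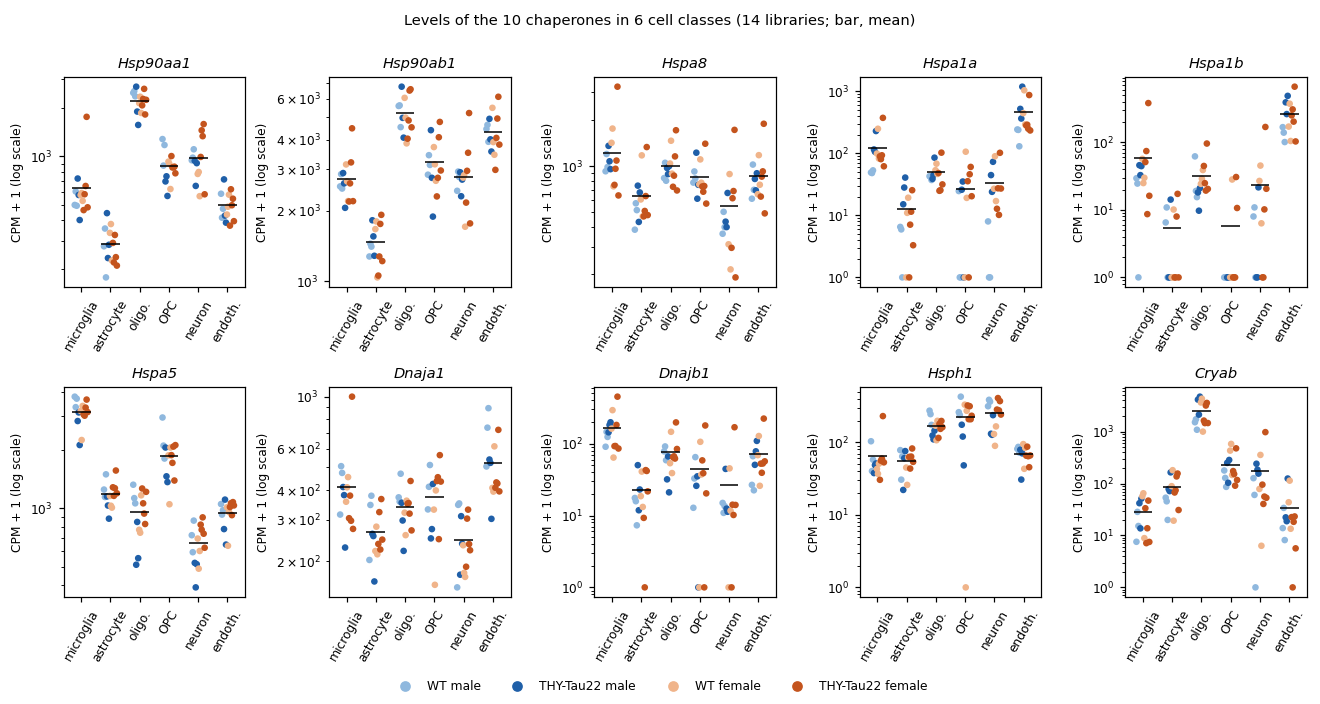
CPM + 1 on a log axis (y) of each of the 10 chaperones in 6 cell classes (x), 1 point per library (14 libraries, coloured by group) with a bar at the mean. Cryab in oligodendrocytes (997 to 4699 CPM) stood above every other class, and Hspa1a and Hspa1b had their highest bars in endothelial cells.

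The cytosolic HSP90 genes were highest in oligodendrocytes, and Hsp90ab1 was the most abundant member in all cells. Hsp90ab1 (chr17:45567775-45573271, minus) stood at 5207 ± 977 CPM (SD, n = 14) in oligodendrocytes and at 4308 ± 841 CPM in endothelial cells, a difference of 0.27 ± 0.11 (SD) on the log2 scale that all 14 libraries showed. Its lowest class was astrocytes, at 1466 ± 290 CPM (SD, n = 14), and neurons and microglia, at 2786 and 2724 CPM, did not differ beyond their spread (adjusted p = 0.945, exact permutation test). Hsp90aa1 (chr12:110690605-110702728, minus), the inducible HSP90, stood at 2198 ± 332 CPM (SD, n = 14) in oligodendrocytes and at 969 ± 308 CPM in neurons, with all 14 libraries higher in oligodendrocytes (adjusted p = 0.000688, exact permutation test). Neurons and OPCs, at 969 and 866 CPM of Hsp90aa1, did not differ beyond their spread (adjusted p = 0.439, exact permutation test), and astrocytes were again lowest at 284 CPM.

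The HSP70 genes each had a class pattern of their own. Hspa8 (chr9:40800984-40810087, plus), the constitutive cytosolic HSP70, stood at 1220 ± 657 CPM (SD, n = 14) in microglia and 1005 ± 278 CPM in oligodendrocytes, 2 classes that did not differ beyond their spread (adjusted p = 0.0602, exact permutation test). Hspa5 stood at 3139 ± 484 CPM (SD, n = 14) in microglia and 1855 ± 460 CPM in OPCs, and its lowest class was neurons at 661 ± 153 CPM. Macrophage-like cells (347 cells) were close to microglia in Hspa5, at 3053 ± 779 CPM (SD, n = 13), without a test of that pair. Hspa5 in endothelial cells and oligodendrocytes, at 945 and 959.6 CPM, did not differ beyond the spread (adjusted p = 0.932, exact permutation test).

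Hspa1a stood at 453 ± 331 CPM (SD, n = 14) in endothelial cells against 122 ± 94.1 CPM in microglia, with all 14 libraries higher in endothelial cells by 1.88 ± 0.38 (SD, log2). Hspa1b stood at 265 ± 166 CPM (SD, n = 14) in endothelial cells and 57.7 ± 94.9 CPM in microglia. Mural cells, the other cells of the vessel wall (889 cells), were at 476 ± 445 CPM of Hspa1a and 187 ± 135 CPM of Hspa1b (SD, n = 14), and these were not tested against endothelial cells. A UMI of Hspa1a was found in 18.4% of endothelial cells and 0.671% of astrocytes, and the libraries' astrocyte values of 0 to 39.6 CPM rest on 35 UMIs in all. In OPCs 11 of 14 libraries held 0 UMIs of Hspa1b, and a count of 0 allows up to 3.

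The cochaperones were less uniform. Dnaja1 (chr4:40722150-40737149, plus) stood at 521 ± 166 CPM (SD, n = 14) in endothelial cells and 245 ± 70.0 CPM in neurons, the extremes of a narrow range. Dnajb1 (chr8:83608193-83612653, plus), the heat-induced partner of Hspa1a, stood at 164 ± 102 CPM (SD, n = 14) in microglia and 74.8 ± 46.1 CPM in oligodendrocytes, with all 14 libraries higher in microglia. Hsph1 (chr5:149614287-149636376, minus) stood at 250.9 ± 109 CPM (SD, n = 14) in neurons, 225 ± 114 CPM in OPCs and 167 ± 49.3 CPM in oligodendrocytes, and neighbours in this order did not differ beyond their spread (adjusted p = 0.402 and 0.981, exact permutation tests). These 2 pairs had wide SDs of 1.90 and 2.05 (log2). Oligodendrocytes differed from neurons by -0.49 ± 0.56 (SD, log2), with neurons higher in 11 of 14 libraries (adjusted p = 0.0206, exact permutation test). Oligodendrocytes held more Hsph1 than endothelial cells (68.4 CPM) in all 14 libraries, by 1.28 ± 0.41 (SD, log2).

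Cryab (chr9:50751325-50756636, plus), the small heat shock protein alpha-B crystallin, stood at 2532 ± 1315 CPM (SD, n = 14) in oligodendrocytes. The next class, OPCs, stood at 227 ± 158 CPM (SD, n = 14), 3.56 ± 0.67 lower on the log2 scale in all 14 libraries. A UMI of Cryab was found in 67.7% of oligodendrocytes and in 1.41% of microglia, whose main clusters had median depths of 584 and 515 UMIs per cell. Free RNA from oligodendrocytes can give such counts in other classes. Barcodes under 200 detected genes, which stand for nearly empty droplets, held 127 to 703 CPM of Cryab with a median of 301 CPM over the 14 libraries, above the mean of every other class, so Cryab outside oligodendrocytes is read as background.

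Some members share sequence with other genes, which the count tables list separately. Of the 60-base windows, the length of the transcript reads, in the last 500 bases of their coding transcripts, 66.8% in Hspa8, 38.1% in Dnaja1, 23.2% in Hsp90aa1 and 1.64% in Hsp90ab1 were found in another gene as well. The other 6 members shared none, Hspa1a and Hspa1b included. The Hsp90aa1-like pseudogene Gm12346 held 13352 UMIs beside the 16282 of Hsp90aa1 in the 14 libraries, and 71.7% of its windows lay in Hsp90aa1 transcripts. How reads that fit several genes were counted is not given in the sources used here, so the levels of Hspa8, Dnaja1 and Hsp90aa1 are uncertain.

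THY-Tau22 and WT mice were compared next, in all cells and in the 6 classes, by edgeR's quasi-likelihood test on UMIs summed per library. The members passed the filter on low counts in 59 combinations of gene and level: all 10 in all cells and in microglia, 9 in oligodendrocytes (not Hspa1b) and endothelial cells (not Cryab), and 7 in astrocytes, OPCs and neurons (not Hspa1a, Hspa1b or Dnajb1). A combination was called at an adjusted p under 0.05, over all genes of the level, with a log2 fold change of at least 0.5. None of the 59 was called in males or females alone, in the mean of the sexes or in the interaction of sex with genotype, where 0.101%, 0.00316%, 0.00948% and 0.00948% of all 31635 gene and level combinations were called. The lowest adjusted p of a member was 0.100 in males, 0.996 in females, 0.676 in the mean of the sexes and 0.0790 in the interaction. DESeq2 called 3 in males and 2 in the interaction, all of them Hspa5, and 0 in the other contrasts. The share of all combinations that DESeq2 called is not given here, so these calls are not read as particular to the members. A missed threshold does not show that levels were equal. In all-cell sums, fewer cells of a type and less RNA per cell cannot be told apart.

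At an unadjusted p under 0.05, 20 of the 59 combinations (33.9%) stood out in males, 6 higher and 14 lower in THY-Tau22, beside 15.5% of all combinations. In females 2 of 59 (3.39%) did, both higher, beside 2.44% of all combinations. Over both sexes 5 did (8.47%) beside 5.07%, and for the interaction 21 did (35.6%) beside 13.6%. Male WT and THY-Tau22 libraries did not overlap in 20 of 59 combinations, with THY-Tau22 above in 9 and below in 11, beside 26.3% of all combinations. Female libraries did not overlap in 2 of 59, Hspa5 in astrocytes and Hsph1 in neurons, beside 1.77%.

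The share of UMIs from mitochondrial genes, mostly the ribosomal RNA mt-Rnr2, went with genotype in males. It was 17.8% to 23.6% in the 3 WT males and 12.5% to 14.3% in the 3 THY-Tau22 males, without overlap, so that genotype and this share cannot be told apart in males. In females it was 6.08% to 23.6% in WT and 8.24% to 20.5% in THY-Tau22. The titles also carry an S number from 1 to 8 whose meaning is not stated, and the 6 libraries with S3, S4 or S8 had shares of 6.08% to 13.8% against 14.3% to 23.6% in the other 8. Of the 6, 2 were THY-Tau22 males, none was a WT male, 2 were WT females and 2 were THY-Tau22 females. S3, S4 and S8 were set apart after values of these libraries were seen, so the gap in shares is a description with no test. The part of these measures in the differences was examined only by adding the mitochondrial share or the S number as a term, alternatives chosen after the data were seen, and the part of the unnamed cells of THY-Tau22 male replicate 3 was not tested.

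**Figure D2:**
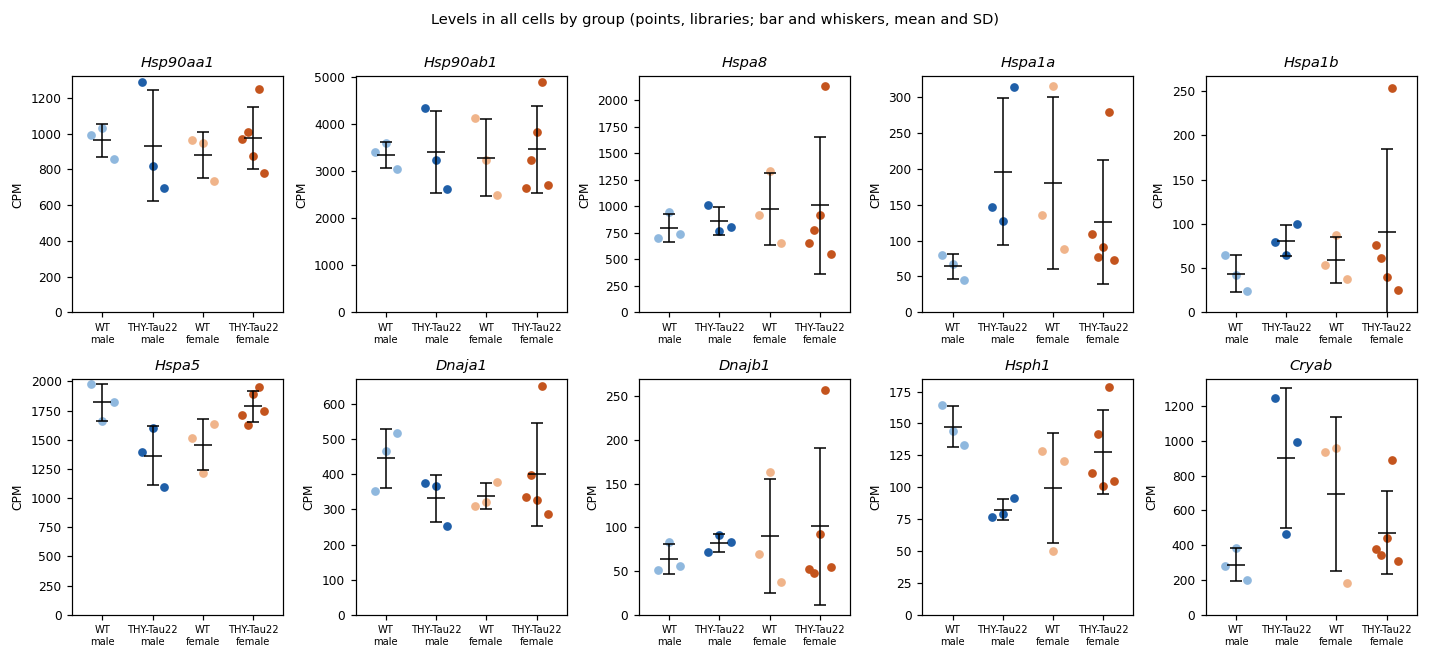
CPM in all cells (y, from 0) of each of the 10 chaperones by group (x), 1 point per library, with bars and whiskers at the mean and SD and whiskers cut at 0. Male groups did not overlap for Hspa1a, Hspa5, Hsph1 and Cryab, and a single THY-Tau22 female library was highest for Hspa8 (2136 CPM), Hspa1b (254 CPM) and Dnajb1 (258 CPM).

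The constitutive HSP90 and HSP70 genes had small fold changes, whose sign depended on the libraries and terms in the fit. Hsp90ab1 in all cells stood at 3396, 3594 and 3044 CPM in WT males and at 4344, 3244 and 2615 CPM in THY-Tau22 males, groups that overlapped. Its log2 fold change was -0.14 ± 0.27 (SE) in males and 0.10 ± 0.25 in females, and the female value was -0.04 without THY-Tau22 female replicate 4. Hspa8 in all cells had log2 fold changes of -0.06 ± 0.35 (SE) in males and 0.08 ± 0.31 in females. With the mitochondrial share as a term the male difference of Hspa8 was -0.58 in all cells and -0.67 in microglia (0.04 without the term), with unadjusted p-values of 0.0377 and 0.0190 by edgeR and adjusted p-values of 0.970 and 0.812, and without THY-Tau22 female replicate 4 the female difference in all cells was -0.36. With all 14 libraries and no such term, neither gene reached an unadjusted p under 0.05 in a contrast at a level tested, and neither had male or female groups that did not overlap.

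Hsp90aa1 in all cells stood at 993, 1034 and 861 CPM in WT males and at 1288, 817 and 695 CPM in THY-Tau22 males, with a log2 fold change of -0.21 ± 0.25 (SE, adjusted p = 0.702). In OPCs it stood at 1275, 873 and 1171 CPM in WT males and at 696, 749 and 566 CPM in THY-Tau22 males, without overlap (log2 fold change -0.77 ± 0.29, SE, adjusted p = 0.383). In neurons WT males stood at 942, 978 and 1102 CPM and THY-Tau22 males at 935, 653 and 904 CPM. These groups did not overlap either, by a narrow margin. The female difference in neurons went the other way, at 0.63 ± 0.30 (SE, log2, adjusted p = 0.999, edgeR), with groups that overlapped. OPC and neuron values rest on 12 to 108 and 18 to 145 UMIs of Hsp90aa1 per library.

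Hspa1a was higher in THY-Tau22 than in WT males without overlap at 3 of the 4 levels tested, but the difference passed the adjusted threshold at none. In oligodendrocytes, the other level, Hspa1a stood at 41.7, 40.7 and 36.1 CPM in WT males and at 37.7, 43.6 and 84.0 CPM in THY-Tau22 males, which overlapped. In all cells it stood at 80.4, 67.2 and 45.5 CPM in WT males and at 147, 127 and 315 CPM in THY-Tau22 males, a log2 fold change of 1.38 ± 0.44 (SE, adjusted p = 0.234). In females it stood at 136, 315 and 87.7 CPM in WT and at 109.7, 77.3, 91.5, 279 and 72.3 CPM in THY-Tau22, groups that overlapped (log2 fold change -0.47 ± 0.38, SE). The highest WT female was level with the highest THY-Tau22 male. In endothelial cells Hspa1a stood at 241, 237 and 129 CPM in WT males and at 518, 362 and 1182 CPM in THY-Tau22 males (log2 fold change 1.55 ± 0.43, SE, adjusted p = 0.136). In females the endothelial values were 443, 1034 and 290.4 CPM in WT and 279.8, 287, 248, 866 and 232 CPM in THY-Tau22, and the interaction was 2.19 ± 0.57 (SE, log2, adjusted p = 0.111). In microglia WT males stood at 48.03, 47.03 and 52.04 CPM and THY-Tau22 males at 114, 105 and 227 CPM (log2 fold change 1.51 ± 0.50, SE, adjusted p = 0.128). With the mitochondrial share as a term the male difference was 0.65 in all cells, 0.81 in endothelial cells and 0.61 in microglia, and with the S number it was 1.19, 1.62 and 1.24. THY-Tau22 male replicate 3, the library with many unnamed cells, was highest of the males at all 3 levels.

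Hspa1b in endothelial cells stood at 167, 138 and 99.98 CPM in WT males and at 390.4, 261 and 487 CPM in THY-Tau22 males, without overlap (log2 fold change 1.27 ± 0.43, SE, adjusted p = 0.203). Female values were 170.2, 373 and 104 CPM in WT and 249.7, 306, 202, 666 and 102 CPM in THY-Tau22, which overlapped. Averaged over both sexes the difference was 0.87 ± 0.29 (SE, log2, adjusted p = 0.906). With the mitochondrial share as a term the male difference was 0.54. In all cells the male groups overlapped by a narrow margin, with WT up to 65.1 CPM and THY-Tau22 from 64.7 CPM.

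Hspa5 was lower in THY-Tau22 than in WT males, in a direction opposite to Hspa1a. In all cells it stood at 1978, 1662 and 1819.5 CPM in WT males and at 1396, 1599.8 and 1093 CPM in THY-Tau22 males, without overlap (log2 fold change -0.59 ± 0.24, SE, adjusted p = 0.276). In oligodendrocytes it stood at 1325, 1129.6 and 1062 CPM in WT males and at 510.5, 850.4 and 552 CPM in THY-Tau22 males, a log2 fold change of -1.10 ± 0.27 (SE, adjusted p = 0.100). Female oligodendrocytes held 774, 748 and 1168 CPM in WT and 1267, 1062, 939, 829.7 and 1218 CPM in THY-Tau22, groups that overlapped, and the interaction was -1.36 ± 0.37 (SE, log2, adjusted p = 0.0790). This was the lowest adjusted p of the interaction among the members. In females Hspa5 differed the other way in astrocytes, where WT stood at 1159.5, 1032 and 1009 CPM and THY-Tau22 at 1285, 1160.4, 1272, 1569.5 and 1197 CPM, with the lowest THY-Tau22 library next to the highest WT library. The male groups did not overlap in microglia or neurons either, and the male difference was -0.60 ± 0.24 (SE, log2) in astrocytes and -0.74 ± 0.31 in neurons. DESeq2 gave the male difference adjusted p-values of 0.0469 in all cells, 0.0447 in astrocytes and 0.0214 in oligodendrocytes. With the mitochondrial share or the S number as a term the oligodendrocyte difference was -0.68 or -0.87.

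Dnaja1 was lower in THY-Tau22 males in several classes without passing the adjusted threshold. In oligodendrocytes it stood at 372, 357 and 469 CPM in WT males and at 353, 297 and 220.0 CPM in THY-Tau22 males, a gap of a few CPM between the groups (log2 fold change -0.66 ± 0.26, SE, adjusted p = 0.192). The male difference was -0.68 ± 0.28 (SE, log2) in astrocytes, -0.78 ± 0.30 in endothelial cells and -0.59 ± 0.28 in all cells, with overlapping groups. Dnajb1 in oligodendrocytes stood at 77.0, 90.4 and 57.8 CPM in WT males and at 30.8, 65.4 and 20.0 CPM in THY-Tau22 males, which overlapped (log2 fold change -1.21 ± 0.48, SE, adjusted p = 0.192). With the mitochondrial share or the S number as a term this difference was -1.86 or -1.66. In all cells the difference of Dnajb1 was 0.20 ± 0.48 (SE, log2) in males and 0.20 ± 0.43 in females. The male value turned to -0.73 with the mitochondrial share and -0.66 with the S number as a term, and the female value turned to -0.43 without THY-Tau22 female replicate 4, so no direction is read from it.

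Hsph1 was lower in THY-Tau22 males at 4 levels without overlap. In all cells it stood at 165, 144 and 133 CPM in WT males and at 76.3, 79.3 and 91.9 CPM in THY-Tau22 males (log2 fold change -1.03 ± 0.30, SE, adjusted p = 0.228). In oligodendrocytes it stood at 273, 244 and 173 CPM in WT males and at 123, 109 and 144 CPM in THY-Tau22 males (log2 fold change -1.12 ± 0.30, SE, adjusted p = 0.102). In OPCs the male difference was -1.34 ± 0.51 (SE, log2, adjusted p = 0.396). In neurons, where Hsph1 was most abundant, the sexes differed in direction. Neuronal Hsph1 stood at 314, 385 and 363 CPM in WT males and at 130.5, 126 and 236 CPM in THY-Tau22 males (log2 fold change -1.17 ± 0.38, SE, adjusted p = 0.430). In females it stood at 129, 88.6 and 165 CPM in WT and at 282, 407, 275, 369.5 and 241 CPM in THY-Tau22 (log2 fold change 0.95 ± 0.37, SE, adjusted p = 0.999). Neither sex overlapped, and the interaction was -2.12 ± 0.53 (SE, log2), with an adjusted p of 0.431 over all genes. These values rest on 27 to 205 neurons and 2 to 45 UMIs of Hsph1 per library. With the mitochondrial share as a term the male difference in neurons was -0.89 and the female difference 0.99, and with the S number as a term they were -0.67 and 1.21.

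**Figure D3:**
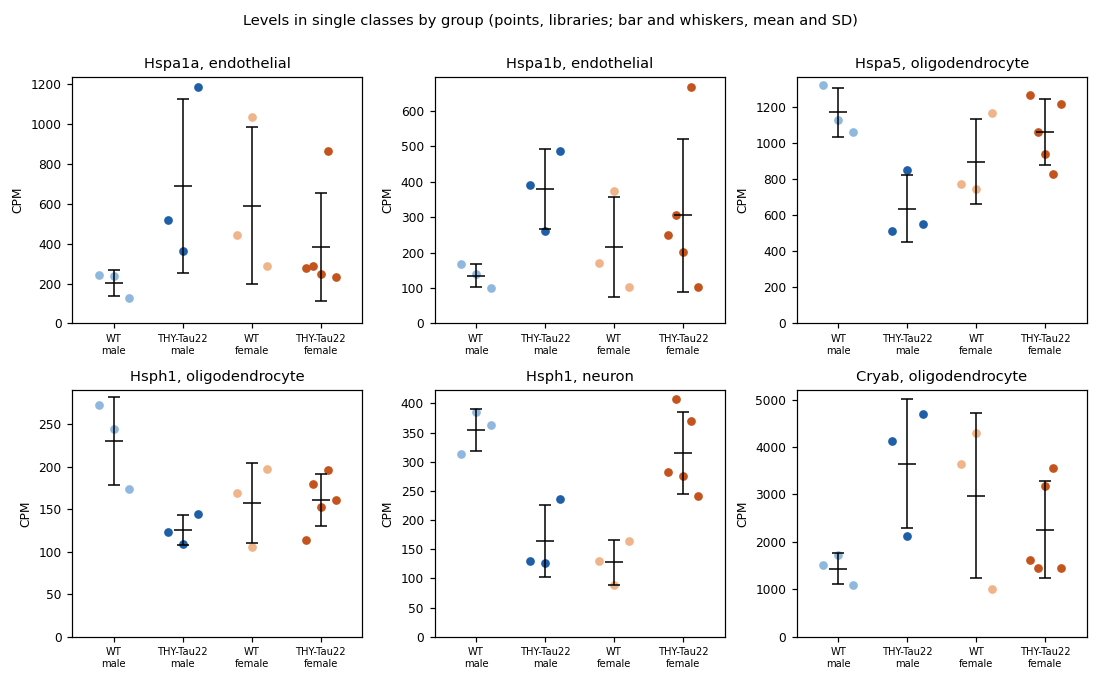
CPM (y, from 0) by group (x) for Hspa1a and Hspa1b in endothelial cells, Hspa5, Hsph1 and Cryab in oligodendrocytes and Hsph1 in neurons, 1 point per library with bars and whiskers at the mean and SD. The 3 THY-Tau22 males lay above the 3 WT males for Hspa1a, Hspa1b and Cryab and below them for Hspa5 and Hsph1, and the female groups overlapped except for neuronal Hsph1.

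Cryab in oligodendrocytes stood at 1511, 1721.5 and 1083 CPM in WT males and at 4125, 2119 and 4699 CPM in THY-Tau22 males, without overlap (log2 fold change 1.11 ± 0.35, SE, adjusted p = 0.126). In females it stood at 3633, 4292 and 997 CPM in WT and at 1626, 1455, 3172, 3559.5 and 1459 CPM in THY-Tau22, groups that overlapped, and the interaction was 1.44 ± 0.47 (SE, log2, adjusted p = 0.143). After these values were seen, S3, S4 and S8 were set against the other S numbers as a description, with no test. The 6 libraries with S3, S4 or S8 lay at 3172 to 4699 CPM and the other 8 at 997 to 2119 CPM. Hspa5 in oligodendrocytes lay at 510.5 to 939 CPM in the 6 and at 850.4 to 1325 CPM in the 8, which overlap. With the S number as a term the male difference of Cryab was 0.06 ± 0.34 (SE, log2) and the interaction turned to -0.09 ± 0.44, and with the mitochondrial share as a term the male difference was 0.33. The S number term has a level for each number and leaves few degrees of freedom. No WT male carries S3, S4 or S8, so the male genotypes cannot be compared within these numbers, and the only THY-Tau22 male with another number stood at 2119 CPM. In all cells Cryab stood at 279, 385 and 198 CPM in WT males and at 1247, 464 and 993 CPM in THY-Tau22 males (log2 fold change 1.47 ± 0.45, SE, adjusted p = 0.233), a level that also counts the share of oligodendrocytes among the cells.

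**Figure D4:**
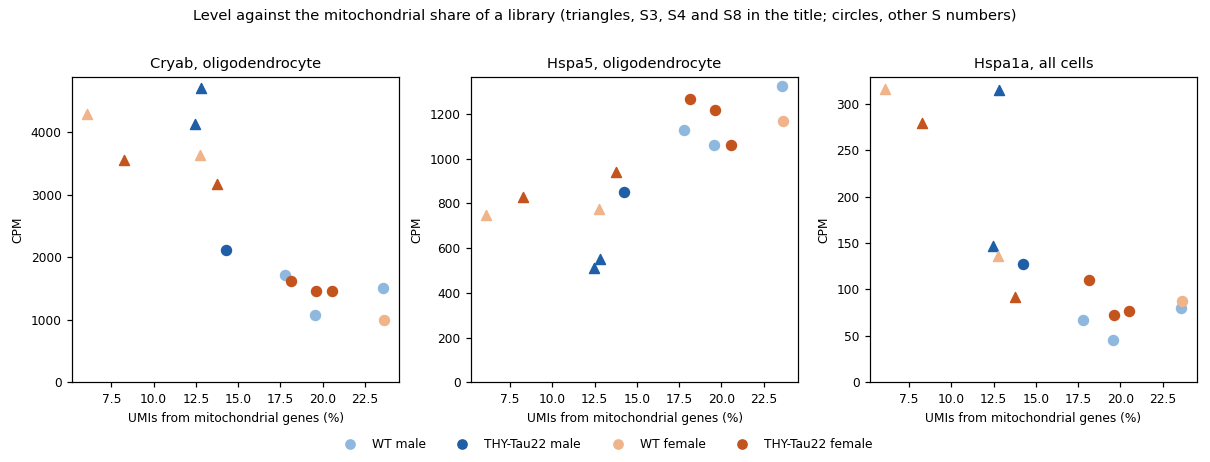
CPM (y, from 0) of Cryab and Hspa5 in oligodendrocytes and of Hspa1a in all cells against the percent of a library's UMIs from mitochondrial genes (x), 1 point per library coloured by group, with triangles for libraries with S3, S4 or S8 in the title. Libraries with a mitochondrial share up to 13.8% held all Cryab values of at least 3172 CPM, the 4 highest Hspa1a values and the 5 lowest Hspa5 values.

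THY-Tau22 female replicate 4 stood apart from the other 4 libraries of its group in several members, both stress-induced ones and the constitutive Hspa8. In microglia it held 371 CPM of Hspa1a, 380.5 of Hspa1b, 449 of Dnajb1, 229 of Hsph1 and 999 of Dnaja1, where the others reached at most 91.8, 73.3, 181, 58.6 and 379 CPM. Its microglia also held 3264 CPM of Hspa8, where the others reached at most 1084 CPM. The levels were spread over many cells: a UMI of Hspa1a was found in 61 of its 489 microglia, and no cell held more than 3.70% of these UMIs. Hspa5 in the same microglia stood at 3654 CPM, against 3016 to 3319.6 CPM in the others. Without this library no member was called in females, 1 was called in males (Hspa1a in microglia, adjusted p = 0.0316) and 3 for the interaction (Hspa1a in microglia and endothelial cells, Hspa5 in oligodendrocytes). Leaving out WT female replicate 3 gave 4 calls in males (Hspa1a in endothelial cells and Hspa5, Hsph1 and Cryab in oligodendrocytes, adjusted p from 0.0178 to 0.0341) and 10 for the interaction. The shares of all genes called in these fits are not given here, so the calls are not read as particular to chaperones.

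**Figure D5:**
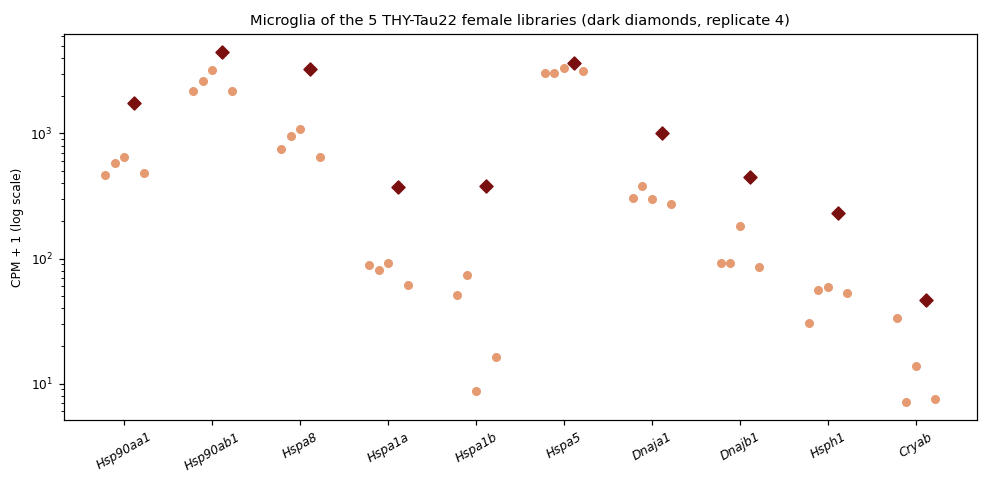
CPM + 1 on a log axis (y) of the 10 chaperones (x) in microglia of the 5 THY-Tau22 female libraries, with replicate 4 as dark diamonds and the other 4 as circles. Replicate 4 was the highest of the 5 for every member, by a wide gap for Hspa8 (3264 against at most 1084 CPM) and Hspa1a (371 against at most 91.8 CPM).

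The spread between libraries of a group differed between members. In all cells the within-group SD of log2(CPM + 1) was 0.18 for Hspa5, 0.29 for Hsp90aa1 and 0.33 for Hsp90ab1, below the median of 0.42 over the 11643 genes tested. It was 0.74 for Hspa1a, 0.81 for Dnajb1, 0.82 for Cryab and 0.89 for Hspa1b, above that median. Dnaja1, Hsph1 and Hspa8 stood between, at 0.35, 0.41 and 0.55.

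Members also varied together across the 14 libraries, in a family of 10 relations of log2(CPM + 1) in all cells, with permutation p-values adjusted over the 10, of which 9 are given. Levels in all cells also depend on the share of each class among the cells, whose part was not tested. Hspa1a rose with Hspa1b (r = 0.81, adjusted p = 0.00107; rho = 0.82, adjusted p = 0.002, permutation tests), and r was 0.88 without the 2 libraries farthest from the median. It rose with Dnajb1 (r = 0.71, adjusted p = 0.0082; rho = 0.59, adjusted p = 0.0504; r = 0.71 without the 2). Within the 6 libraries with S3, S4 or S8 and within the other 8, r was 0.74 and 0.75 for Hspa1a and Hspa1b and 0.56 and 0.18 for Hspa1a and Dnajb1, with no test. With group means removed over all 14 libraries, r was 0.86 and 0.80 (adjusted p = 0.0003 and 0.0017, permutation tests). Hspa1a and Hsph1, both heat shock factor targets, gave r = -0.45 (adjusted p = 0.108; rho = -0.50, adjusted p = 0.0694, permutation tests) and -0.04 without the 2. Within classes, group means removed, the mean r over 3 classes was 0.71 for Hspa1a and Dnajb1 and 0.16 for Hspa1a and Hsph1, with no test.

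Hsp90aa1 rose with Hsp90ab1 (r = 0.81, adjusted p = 0.00145; rho = 0.73, adjusted p = 0.00992, permutation tests), with 0.89 and 0.68 within the 2 sets and 0.74 without the 2 farthest libraries. With Hspa8 it gave r = 0.62 (adjusted p = 0.0257; rho = 0.53, adjusted p = 0.0675, permutation tests), 0.63 and 0.58 within the sets and 0.73 without the 2. With Dnaja1 it gave r = 0.55 (adjusted p = 0.0418; rho = 0.51, adjusted p = 0.0694, permutation tests), and r was 0.54 without the 2 (adjusted p = 0.077 over 12 libraries) and 0.78 and 0.28 within the sets. Within classes, group means removed, the mean r of Hsp90aa1 over 6 classes was 0.55 with Hsp90ab1, 0.40 with Hspa8 and 0.17 with Dnaja1. The classes ranged from 0.15 to 0.91, from -0.02 to 0.91 and from -0.41 to 0.91, with no test. Hspa5 rose with Hsp90b1, the HSP90 of the endoplasmic reticulum (r = 0.87, adjusted p = 0.0003; rho = 0.86, adjusted p = 0.0008, permutation tests), with 0.87 and 0.77 within the sets and 0.76 without the 2.

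Hspa1a was also set against 2 measures of cell state. With the summed level of 15 immediate early genes it gave r = 0.63 (adjusted p = 0.0257; rho = 0.68, adjusted p = 0.0185, permutation tests), but 0.54 without the 2 farthest libraries (adjusted p = 0.077), 0.48 with group means removed (adjusted p = 0.0903, permutation tests), and -0.07 and 0.39 within the sets. With the median share of mitochondrial messenger RNA per cell, ribosomal RNAs left out, it gave r = 0.88 (adjusted p = 0.0002; rho = 0.90, adjusted p = 0.0002, permutation tests), 0.71 and 0.70 within the sets and 0.75 without the 2. This measure is not the share of all mitochondrial UMIs, mostly mt-Rnr2, which was low in the libraries with the highest Hspa1a values.

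Other chaperone genes were read from fixed lists of HSP90 co-chaperones, HSP70 and J-domain proteins, nucleotide exchange factors, small heat shock proteins, chaperonins, heat shock factors and endoplasmic reticulum folding genes. Of 85 genes listed, 77 were tested in all cells and none was called in a contrast by edgeR. At an unadjusted p under 0.05, 3 were higher and 4 lower in THY-Tau22 males, 1 was lower in females, and 4 were positive and 4 negative for the interaction, beside 15.4%, 1.74% and 12.7% of all genes in all cells. The 2 with the smallest p in males were Bag3, an exchange factor of HSP70 (log2 fold change -1.09 ± 0.33, SE, adjusted p = 0.228), and Hspbp1, another exchange factor (1.58 ± 0.51, adjusted p = 0.234). In females they were Hyou1, an HSP110-like chaperone of the endoplasmic reticulum (-0.72 ± 0.31, adjusted p = 1.00), and Bag1 (0.45 ± 0.26). For the interaction they were Bag3 (-1.30 ± 0.44, SE, adjusted p = 0.291) and the HSP110 gene Hspa4l (-1.04 ± 0.37, adjusted p = 0.297), and over both sexes Hspbp1 (0.83 ± 0.35, adjusted p = 0.946) and Bag3 (-0.45 ± 0.22, adjusted p = 0.946). The median log2 fold change of the 77 was 0.06 in males and 0.05 in females, where that of all genes was 0.01 and -0.01.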

How the data were processed

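UMI counts per gene and cell barcode were deposited by the authors without normalization, 3000 barcodes per table, from the Drop-seq pipeline and, per the submitters' processing notes, the mm10 build; its version, the annotation and the handling of reads that fit several genes are not given in the sources used here. The members and gene lists were chosen with earlier results of these data known. All members are named, and of the other lists the 2 genes with the smallest p per contrast where none was called; likeness names the 3 genes with the highest mean r.

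Barcodes with 200 to 7000 detected genes were kept (28530 of 48000; 19470 were under 200 and 0 over 7000). Leiden clustering (leidenalg 0.10.2, resolution 0.5, 2500 variable genes, 19 components, 20 neighbours) was run without the 109 genes of the fixed lists and, in addition, without the mitochondrial genes, and gave 17 clusters. The minimum of 2 markers among 10 leading genes was set after the clusters were seen and left 3 clusters with 1 marker unnamed. Of these, cluster 7 held 6.78% of THY-Tau22 male, 1.36% of THY-Tau22 female, 2.76% of WT female and 0.915% of WT male cells, cluster 10 held 0.539%, 0.727%, 1.06% and 0.824%, and cluster 12 held 0.950%, 0.705%, 0.327% and 0.654%. Doublets were marked by Scrublet's procedure, written out with an exact neighbour search (888 cells, 3.11%), kept, and removed in an alternative.

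UMIs were summed per library and class (at least 10 cells) and tested with edgeR 4.0.16 (R 4.3.3; TMM, filterByExpr, 1 mean per group, 14 libraries) with Benjamini-Hochberg adjustment over all genes of a level; DESeq2 1.42.0 was an alternative. The study's own model on single cells was not used, since cells are not replicates. Class tests were to be adjusted over the 150 member tests alone and were adjusted over 174645 tests instead. CPM, pseudocount 1, was used for levels and correlations (100000 resamples). A relation of Cryab to 1 other gene is not reported here. The scripts were tested on simulated data. Gene positions are from GENCODE and promoter windows from RefSeq, both GRCm38. Replicates were labelled as separate samples only, so p-values measure the spread between these samples. Counting limits cover counting error only.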

Additional observations from a re-analysis of the deposited data

Results flagged for a closer look

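THY-Tau22 female replicate 4 was the highest library of its group by a wide gap in 23 of the 70 sets of member values tested for such a gap. Chance gives about 1 in 20 for a single set. The sets are not independent, since all come from the same 5 libraries and all cells include the cells of the classes. The share over all genes was not counted, so the 23 are not read as beyond chance or as particular to chaperones. The 70 sets are all from the THY-Tau22 females, since groups of 3 libraries were not tested, and within them no other library was set apart. In all cells the library held 2136 CPM of Hspa8, 279 of Hspa1a, 254 of Hspa1b, 258 of Dnajb1 and 889 of Cryab. In microglia it held 1751 CPM of Hsp90aa1, 3264 of Hspa8, 371 of Hspa1a, 380.5 of Hspa1b, 999 of Dnaja1, 449 of Dnajb1 and 229 of Hsph1. In astrocytes it held 1326 CPM of Hspa8, in oligodendrocytes 196 of Dnajb1, and in OPCs 1393 of Hspa8 and 474 of Cryab. In neurons, of which this library had 44, it held 101 CPM of Hspa1a, 168 of Hspa1b, 168 of Dnajb1 and 974 of Cryab, on 3, 5, 5 and 29 UMIs. In endothelial cells it held 866 CPM of Hspa1a, 722 of Dnaja1 and 222 of Dnajb1. The library had a mitochondrial share of 8.24%, the lowest of the 5, and carries S8 in its title.

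Neuronal Hsph1 went in opposite directions in the sexes, with every THY-Tau22 male below every WT male and every THY-Tau22 female above every WT female. The interaction was -2.12 (log2) and did not pass the adjusted threshold (adjusted p = 0.431, edgeR).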

How the results depend on the processing

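Females and the mean over both sexes gave 0 called members under each alternative run. In males 0 became 3 with DESeq2, 7 without the low-count filter, 1 with cells of at least 500 genes, 1 with the shared library kept as a WT male, 6 without both female libraries with the title prefix MB22, and 10 with only the male libraries in the fit; leaving out single libraries gave 0 to 4 (1 without THY-Tau22 male replicate 2, 1 without THY-Tau22 female replicate 4, 3 without WT female replicate 2, 4 without WT female replicate 3). For the interaction 0 became 2 with DESeq2, 4 without the filter and 9 without both MB22 libraries; leaving out single libraries gave 0 to 10 (1 without THY-Tau22 male replicate 2, 3 without THY-Tau22 female replicate 4, 10 without WT female replicate 3). The cause was not tested. Shares of all genes called under the same alternatives are not given here, so these counts are not read as particular to chaperones. Class differences stood at 92 to 126 of 150, and at 116 to 121 with single libraries left out. With group means removed r was 0.54 for Hsp90aa1 and Dnaja1 (0.54 without the 2 farthest libraries) and 0.48 for Hspa1a and immediate early genes (0.54 without the 2), past the threshold in neither. Of 1732 alternative values of 63 fold changes, 1649 kept direction and side of the threshold, 64 kept direction and passed it, and 19 reversed, none of them past the threshold. With the S number as a term the values that reversed were the Cryab interaction in oligodendrocytes (-0.092) and, in all cells, Dnajb1 in males (-0.66) and Cryab in females (0.044). Those that reversed with the mitochondrial share as a term were Dnajb1 (-0.73) and Hspa1b (-0.10) in all cells of males. Hspa8 in all cells was 0.045 in males with the shared library kept as a WT male and -0.0080 in females with cells of at least 500 genes. In all cells of males, leaving out single libraries gave -0.39 to 0.046 for Hsp90ab1 (positive without THY-Tau22 male replicate 3) and -0.22 to 0.062 for Hspa8 (positive on leaving out WT male replicate 2, and likewise for replicates 2 and 3 of the THY-Tau22 males). In all cells of females it gave -0.43 to 0.84 for Dnajb1, -0.036 to 0.28 for Hsp90ab1, -0.16 to 0.90 for Hspa1b and -0.36 to 0.28 for Hspa8, each lowest without THY-Tau22 female replicate 4, with Dnajb1 (-0.15) and Hspa8 (-0.061) also negative without WT female replicate 3. It gave -0.94 to 0.095 for Hspa1a and -0.041 to 0.61 for Hsph1, both turned by leaving out WT female replicate 2. No paired analysis was possible because replicate numbers follow accession order and name no shared animal or litter. Depth limits Hspa1a, Hspa1b and Dnajb1 in astrocytes, OPCs and neurons, where they did not pass the filter on low counts.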

Other observations

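Barcodes under 200 detected genes, which stand for nearly empty droplets, held the same members at lower CPM. The level in kept cells was above that in these barcodes in all 14 libraries for Hsp90aa1, Hsp90ab1, Hspa8, Hspa5, Dnaja1 and Cryab, and in 13 libraries for Hspa1a, 12 for Hsph1, 11 for Dnajb1 and 10 for Hspa1b. The median over libraries was 78.3 CPM in these barcodes and 100.6 CPM in kept cells for Hspa1a, and 1224 and 1650.5 CPM for Hspa5.

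The genes most like each member were found from correlations over the 14 libraries within a class, group means removed, averaged over the classes where both passed the filter. They are descriptions over libraries that share depth and composition. Hsp90aa1 was most like Gm12346 (mean r = 0.89 over 6 classes), the pseudogene that shares its sequence, and Hsp90ab1 was most like Tmed10 (0.83 over 6). Hspa8 was most like Rpl23 (0.87 over 5), Hspa1a like Rps15a (0.81 over 3), Dnajb1 like Sec61b (0.80 over 3) and Dnaja1 like Nmt1 (0.73 over 5). Cryab was most like 1810022K09Rik (0.84 over 3), Hsph1 like Epha5 (0.61 over 3) and Hspa5 like Pum3 (0.58 over 3). The next genes were Gm15542 and Ptms for Hsp90aa1, Ptms and Rpl14-ps1 for Hsp90ab1, Ubb and Rpl18-ps1 for Hspa8, Rps10-ps1 and Rpl13 for Hspa1a, Tln1 and Asph for Hspa5, Btg1 and Gm42694 for Dnaja1, Rpl37rt and Rps27l for Dnajb1, Syap1 and Nub1 for Hsph1, and Nop10 and Sh3bgrl3 for Cryab. Among the members themselves, 26 of the 34 pairs that could be compared had a positive mean r, from -0.40 for Hspa5 and Cryab to 0.75 for Hspa8 and Dnajb1.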
